A study of Mus musculus with 6 samples.

Results

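The genes described here encode 10 G-protein coupled receptors of the pancreatic islet, the micro-organ whose beta, alpha, delta and gamma cells secrete insulin, glucagon, somatostatin and pancreatic polypeptide. They were taken by name as the islet receptors for incretins, glucagon, fatty acids, catecholamines, acetylcholine, somatostatin and galanin, and all 10 were found among the 40840 genes of the count table. RNA was sequenced from mouse islets in 3 knockout (KO) and 3 wild-type (WT) libraries, both on a C57BL/6J background. The study is titled for the function of IGF2R in beta cells, and its labels give neither the cells in which the gene was removed, nor the allele, nor the age or sex of the animals. Whether each library came from its own animal is not stated either, so p-values measure only the spread among these libraries, and this spread may be technical.

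Receptors of this class pass a hormone or nutrient signal through a G protein. Those that couple mainly to Gs raise cyclic AMP and amplify glucose-stimulated insulin secretion, as Glp1r and Gipr do for the incretin hormones GLP-1 and GIP. Those that couple mainly to Gq, such as the muscarinic receptor Chrm3 and the fatty acid receptor Ffar1, act through phospholipase C, inositol trisphosphate and calcium. Those that couple to Gi or Go, such as the adrenergic receptor Adra2a and the somatostatin receptor Sstr3, lower cyclic AMP and restrain secretion.

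Totals ran from 16689319 to 18956235 counts in KO libraries and from 16943764 to 18757633 in WT libraries. Igf2r, the targeted gene, held 928, 841 and 823 counts in KO libraries 1 to 3 and 1790, 2145 and 2097 counts in WT libraries 1 to 3, and its log2 fold change was -1.21 (SE 0.0946, edgeR adjusted p 0.00261). All 13 beta, 10 alpha and 9 delta cell markers had counts, which alone does not establish the tissue. Beta cell markers held 14.8% to 16.4% of all counts in KO libraries and 13.4% to 15.3% in WT libraries. The acinar markers, genes of the digestive-enzyme cells around islets, summed to 1034, 2698 and 932 CPM (counts scaled to a common library size) in KO libraries 1 to 3 and to 16916, 18111 and 2932 CPM in WT libraries 1 to 3. WT libraries 1 and 2 therefore stood apart from the other 4. All 24 acinar markers had counts in at least 1 library. In bulk islets, fewer cells of a type and less RNA per cell cannot be told apart.

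The receptors differed widely in level, and the incretin receptor Gipr led. Levels between genes are given as CPM per kilobase of annotated exon (RPKM), over all 6 libraries. Gipr averaged 110.7 ± 4.09 RPKM and the somatostatin receptor Sstr3 100.2 ± 5.73 RPKM (SD, n = 6). Gipr was above Sstr3 in 6 of 6 libraries, but their ranges met, since the lowest Gipr value was 103 RPKM and the highest Sstr3 value 108 RPKM. Glp1r followed at 33.6 ± 3.51 RPKM and Adra2a at 29.6 ± 4.74 RPKM. That pair did not separate either, and in KO library 2 Adra2a was the higher of them. The glucagon receptor Gcgr averaged 24.2 ± 0.730 RPKM and had the narrowest relative spread over WT libraries of the 10, a coefficient of variation of 1.72%. That is below the 2.97% that counting error alone gives, and over KO libraries it was 4.30%. Adra2a was above Gcgr in 5 of 6 libraries.

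Below these, the galanin receptor Galr1 averaged 14.2 ± 0.977 RPKM and Ffar1 10.6 ± 0.973 RPKM (SD, n = 6). The lipid receptor Gpr119 averaged 8.72 ± 1.03 RPKM, and its range overlapped that of Ffar1. Chrm3 averaged 5.81 ± 0.699 RPKM and the long-chain fatty acid receptor Ffar4 3.997 ± 0.518 RPKM, the lowest of the 10. The order is given for the exons of GENCODE M21, and the annotation behind the counts is not given in the sources used here. For the intronless gene Ffar1, RefSeq lists 903 bases against 4175 exonic bases in GENCODE. On RefSeq spans Ffar1 would stand at 49.1 RPKM, at place 3 of the order, and Adra2a at 38.5 RPKM, above Glp1r.

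**Figure D1:**
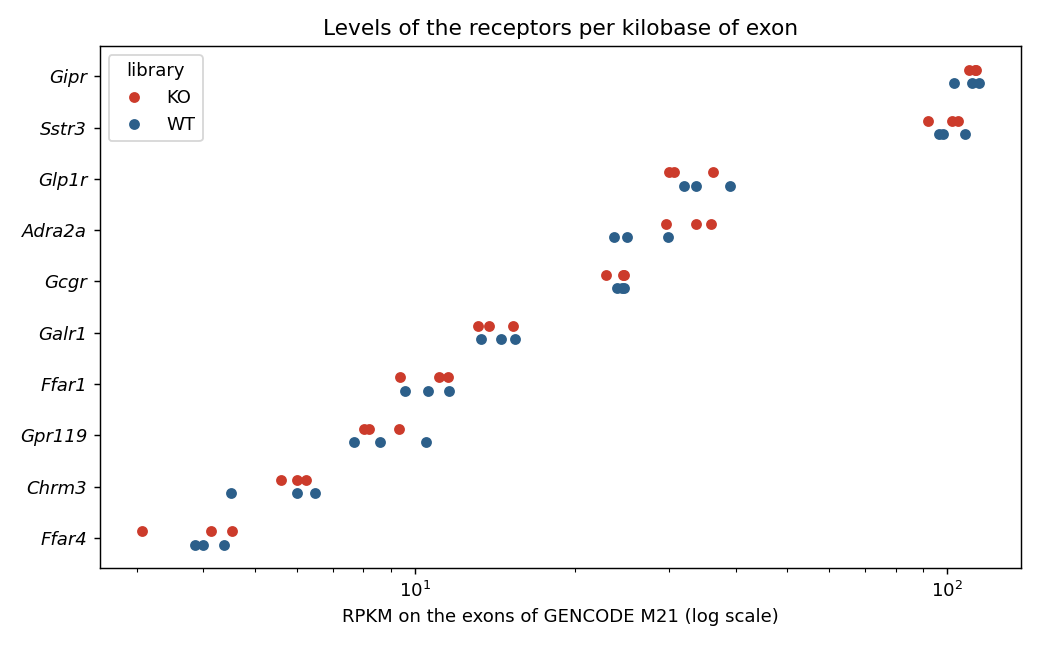
Each point is 1 library, in RPKM on a log axis, with KO in red above WT in blue for each receptor. Gipr and Sstr3 lie near 100 RPKM, Glp1r, Adra2a and Gcgr between 22.9 and 39.1 RPKM, and Ffar4 lies lowest at 3.06 to 4.54 RPKM.

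KO was then compared with WT for each receptor. None of the 10 receptors passed edgeR's quasi-likelihood test over all genes (0 of 10 called at an adjusted p under 0.05, against 0.0123% of the 16240 genes tested, which is 0 higher and 2 lower). With libraries of the same column number as a block, 30 genes were called and again 0 of the 10. At an unadjusted p under 0.05 the receptors held 1 of 10, Adra2a, against 11.0% of all genes. Every one of the 10 receptors had overlapping KO and WT values (0 of 10 without overlap, against 15.7% of all genes). DESeq2, which gave an adjusted p to 4 of the 10, called Adra2a, against 2.28% of the genes to which it gave one. Of the log2 fold changes 4 were positive and 6 negative, with a median of -0.02, and the median over all genes tested was 5.34e-05. All 10 receptors passed the low-count filter.

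**Figure D2:**
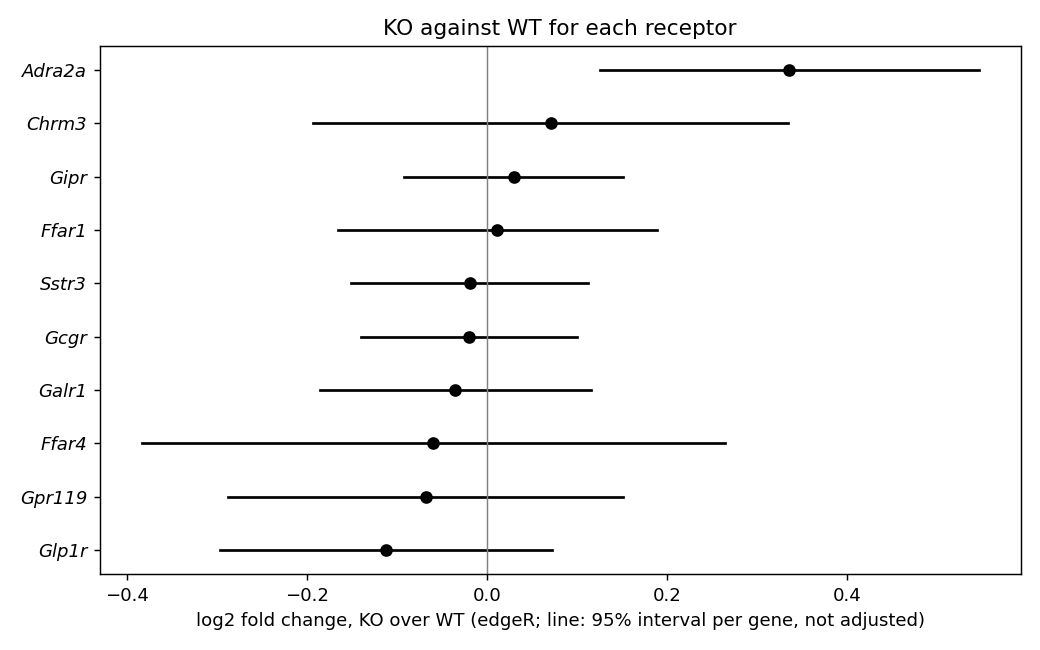
Points are log2 fold changes of KO over WT from edgeR, and lines are 95% intervals for each gene, not adjusted for the number of genes. The interval of Adra2a, from 0.13 to 0.55, lies above 0, and those of the other 9 receptors include 0.

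Glp1r and Gipr, the receptors of the incretin hormones released by the gut after a meal, were among the receptors with the most counts. Glp1r (chromosome 17, 30901817 to 30940791, plus strand of GRCm38) stood at 211, 178 and 175 CPM in KO libraries 1 to 3 and at 227, 196 and 186 CPM in WT libraries 1 to 3. The groups overlapped, with KO library 1 above WT libraries 2 and 3. Its log2 fold change was -0.11 (SE 0.0853, edgeR adjusted p 0.657), with a 95% interval from -18.6% to 5.12%. Gipr (chromosome 7, 19156061 to 19166127, minus strand) stood at 382, 392 and 394 CPM in KO libraries and at 359, 387 and 399 CPM in WT libraries. Its highest and its lowest value were both in WT libraries. The log2 fold change was 0.03 (SE 0.0582, edgeR adjusted p 0.890), with a 95% interval from -6.17% to 10.98%. The ratio of Glp1r to Gipr, in RPKM, averaged 0.289 ± 0.0356 in KO and 0.321 ± 0.0525 in WT (SD, n = 3 each; exact two-sided permutation p 0.5, where 3 against 3 cannot go below 0.1).

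The other receptors that couple mainly to Gs are Gcgr, through which alpha cell glucagon also acts on beta cells, and Gpr119, a receptor for oleoylethanolamide and related lipids. Gcgr (chromosome 11, 120530699 to 120538986, plus strand) stood at 59.9, 64.6 and 64.6 CPM in KO libraries and 64.8, 64.2 and 62.7 CPM in WT libraries. KO library 1 was the lowest, and the other 5 libraries lay between 62.7 and 64.8 CPM. The log2 fold change was -0.02 (SE 0.0577, edgeR adjusted p 0.929), the 95% interval running from -9.30% to 7.14%. Gpr119 (chromosome X, 48667979 to 48674478, minus strand) stood at 21.1, 18.6 and 18.2 CPM in KO libraries and 19.5, 17.5 and 23.8 CPM in WT libraries. WT library 3 was the highest and WT library 2 the lowest, so all KO values fell between WT values. The log2 fold change was -0.07 (SE 0.105, edgeR adjusted p 0.847).

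Ffar1 and Chrm3 act mainly through Gq, and Ffar4 was grouped with them, although its coupling in delta cells was not measured here. Ffar1 (chromosome 7, 30857390 to 30861564, minus strand), the beta cell receptor for long-chain fatty acids, stood at 48.1, 46.4 and 39.1 CPM in KO libraries and 48.4, 39.9 and 44.2 CPM in WT libraries. The means were 44.5 ± 4.79 CPM in KO and 44.2 ± 4.27 CPM in WT (SD, n = 3 each), and the log2 fold change was 0.01 (SE 0.0838, edgeR adjusted p 0.972). Chrm3 (chromosome 13, 9875486 to 10360847, minus strand), which carries the parasympathetic acetylcholine signal to beta cells, stood at 39.0, 37.6 and 35.1 CPM in KO libraries and 40.5, 28.2 and 37.5 CPM in WT libraries. WT library 2 was low, and the other 5 libraries lay between 35.1 and 40.5 CPM. Its log2 fold change was 0.07 (SE 0.117, edgeR adjusted p 0.866), and its 95% interval, from -12.5% to 26.1%, reached furthest upwards among the 9 receptors other than Adra2a.

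Ffar4 (chromosome 19, 38097071 to 38114263, plus strand), a long-chain fatty acid receptor found mainly on delta cells in mouse islets, had the fewest counts. It held 109, 75 and 108 counts in KO libraries and 102, 103 and 102 counts in WT libraries, or 5.79, 4.29 and 6.36 CPM in KO and 5.41, 6.14 and 5.61 CPM in WT. KO library 2 was the lowest and KO library 3 the highest. At this depth counting error alone gives a coefficient of variation of 10.01%, beside 19.5% measured in KO and 6.53% in WT libraries. The log2 fold change was -0.06 (SE 0.156, edgeR adjusted p 0.921), and the interval, from -23.4% to 20.1%, was the widest on the log2 scale among the 10. Per 1000 CPM of summed delta cell markers, of which the somatostatin gene Sst makes up most, Ffar4 stood at 1.22 ± 0.261 CPM in KO and 1.29 ± 0.0952 CPM in WT (SD, n = 3 each; exact two-sided permutation p 0.9). Delta cell markers themselves summed to 4506 ± 286 CPM in KO and 4465 ± 449 CPM in WT (SD, n = 3 each).

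Of the receptors that couple to Gi or Go, Sstr3 and Galr1 differed between genotypes by less than the SD within each genotype. Sstr3 (chromosome 15, 78537008 to 78544685, minus strand), a receptor for the somatostatin of delta cells, stood at 397, 452 and 440 CPM in KO libraries and 417, 465 and 425 CPM in WT libraries. Column 1 was the lowest and column 2 the highest in each genotype, and the groups overlapped. The log2 fold change was -0.02 (SE 0.0633, edgeR adjusted p 0.936), with a 95% interval from -9.96% to 8.09%. Galr1 (chromosome 18, 82392380 to 82406777, minus strand), a receptor for the neuropeptide galanin of sympathetic nerves, stood at 45.6, 41.0 and 39.3 CPM in KO libraries and 43.4, 39.7 and 45.9 CPM in WT libraries. Its log2 fold change was -0.04 (SE 0.0723, edgeR adjusted p 0.893).

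**Figure D3:**
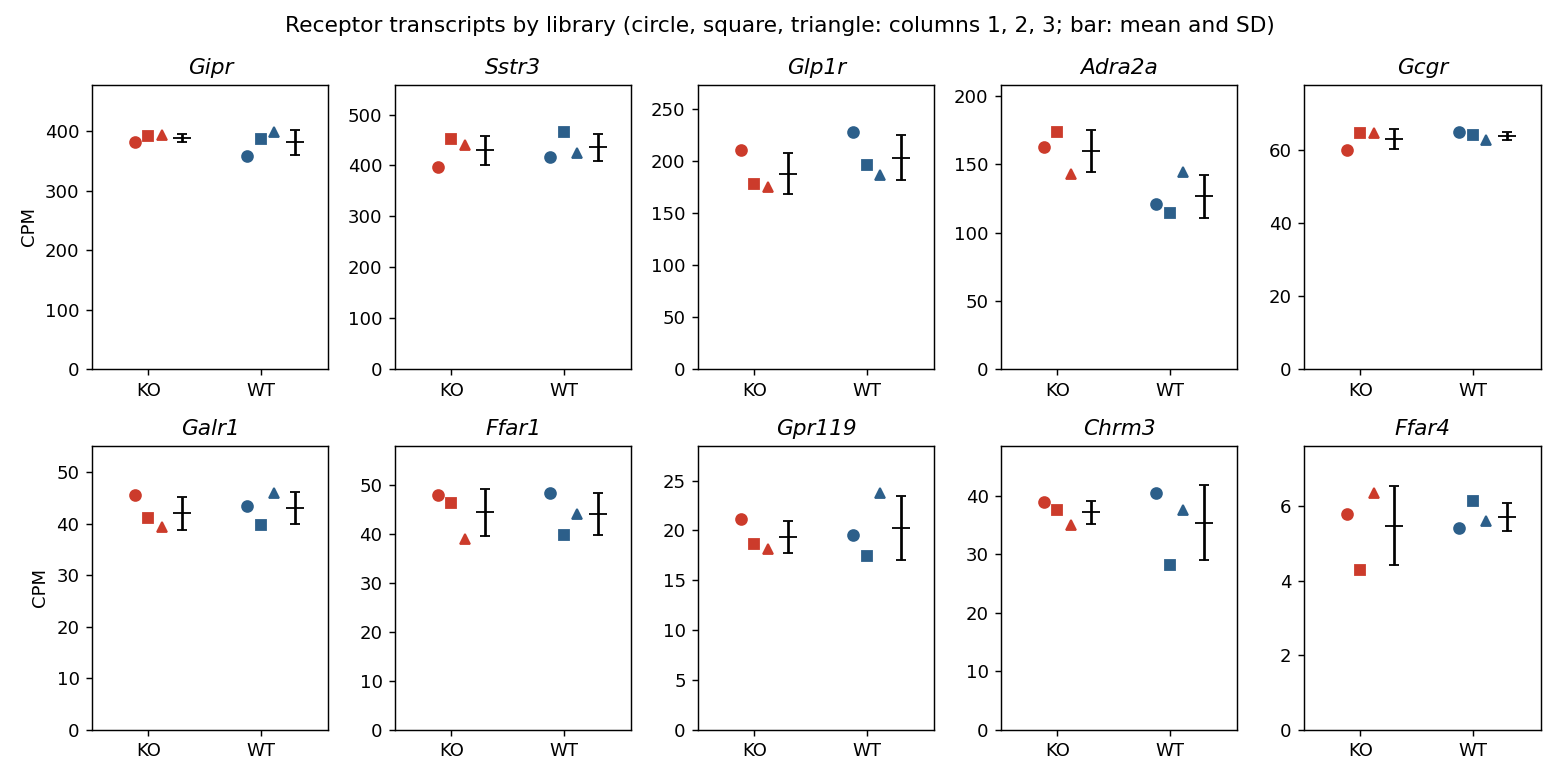
CPM of each receptor in each library, with KO left of WT on axes that start at 0; symbols are the column numbers and bars the mean ± SD of 3 libraries. For Adra2a, KO libraries 1 and 2, at 163 and 174 CPM, lie above all 3 WT libraries, the highest of which is at 144 CPM, and KO library 3 does not.

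Adra2a was the receptor with the largest difference. It encodes the alpha-2A adrenergic receptor, through which noradrenaline and adrenaline inhibit insulin secretion, and lies on chromosome 19 from 54044151 to 54048982 on the plus strand of GRCm38. Its counts were 3066, 3031 and 2433 in KO libraries 1 to 3 and 2282, 1922 and 2626 in WT libraries 1 to 3. Scaled, these are 163, 174 and 143 CPM in KO and 121, 114 and 144 CPM in WT. KO libraries 1 and 2 were the highest, WT libraries 1 and 2 the lowest, and KO library 3 lay just below WT library 3, so the groups overlapped. The means were 160 ± 15.4 CPM in KO and 127 ± 15.7 CPM in WT (SD, n = 3 each), which is 0.34 on the log2 scale (SE 0.0942) or 26.2%, with a 95% interval from 9.05% to 46.0%. The unadjusted edgeR p was 0.00530 and the adjusted p 0.295.

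The call of Adra2a depended on the tool and on single libraries. It was called by DESeq2 (log2 fold change 0.34, adjusted p 0.0153), by edgeR without a low-count filter (0.34, adjusted p 3.04e-05) and by edgeR without WT library 3 (0.44, adjusted p 0.00848). Without KO library 3 the log2 fold change was 0.41 (edgeR adjusted p 0.0809). Against WT library 3 alone it was 0.14, a value given without a test because the spread then comes from the 3 KO libraries only. Its sign was positive in 19 of 19 alternatives, which are refits of these same 6 libraries or of part of them and not replicates.

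**Figure D4:**
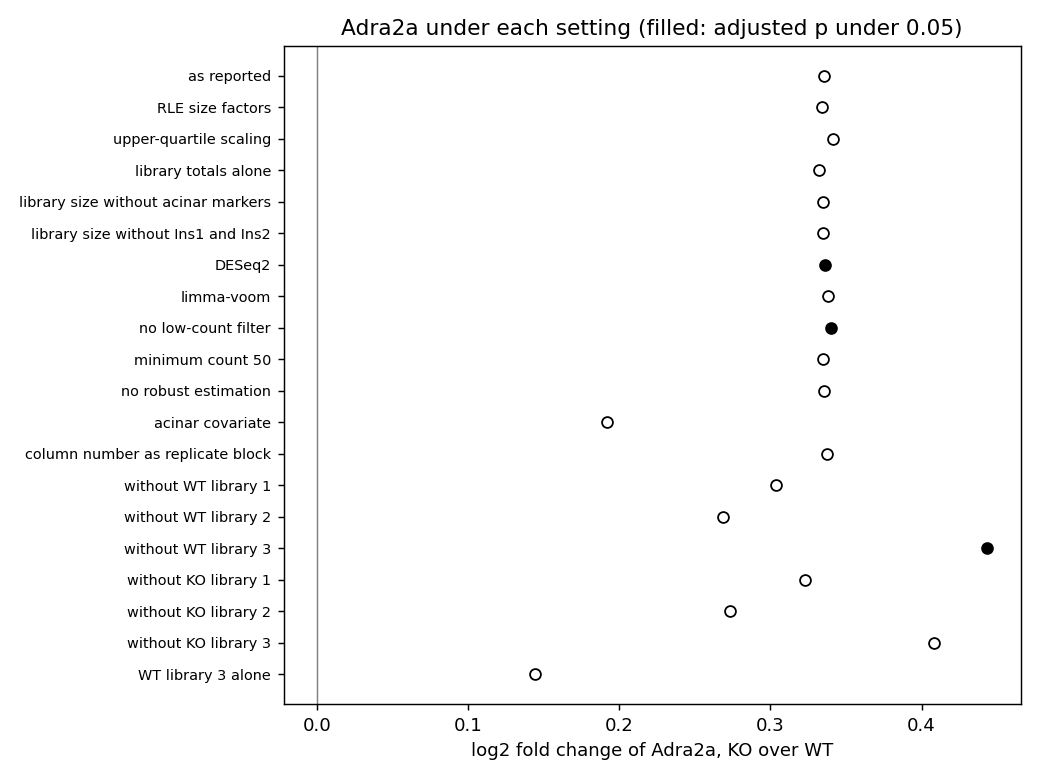
Log2 fold change of Adra2a, KO over WT, as reported and under each alternative, with filled points where the adjusted p was under 0.05. Values lie between 0.14 against WT library 3 alone and 0.44 without WT library 3, and 3 of 19 alternatives are filled.

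The beta cell marker sum moved with Adra2a over the libraries, and the acinar marker sum ran against it in WT but not in KO libraries. Within KO, library 2 was highest and library 3 lowest in both Adra2a and the acinar sum. WT libraries 1 and 2, lowest in Adra2a, had the highest acinar sums. With the acinar level as a covariate the log2 fold change of Adra2a was 0.19 (edgeR adjusted p 0.9998). The covariate was the mean log2 CPM of the acinar markers that passed the low-count filter, not their sum. Acinar content ran with genotype, every KO acinar sum being below every WT sum. The fit with this covariate therefore cannot tell acinar content from genotype, and it called 0 genes. The sums of 13 beta cell markers, in which Ins1 and Ins2 weigh most, were 158405, 166369 and 145240 CPM in KO libraries 1 to 3 and 132989, 142471 and 152555 CPM in WT libraries 1 to 3 (exact two-sided permutation p 0.2). KO libraries 2 and 1 led in this sum as they led in Adra2a, followed by WT library 3 and KO library 3. The 13 markers did not all go one way, since 9 had positive and 4 negative log2 fold changes. The log2 fold change of Adra2a was 0.34 with library sizes counted without acinar markers and 0.33 with library sizes counted without Ins1 and Ins2. The part of beta cell content in the difference was not tested.

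**Figure D5:**
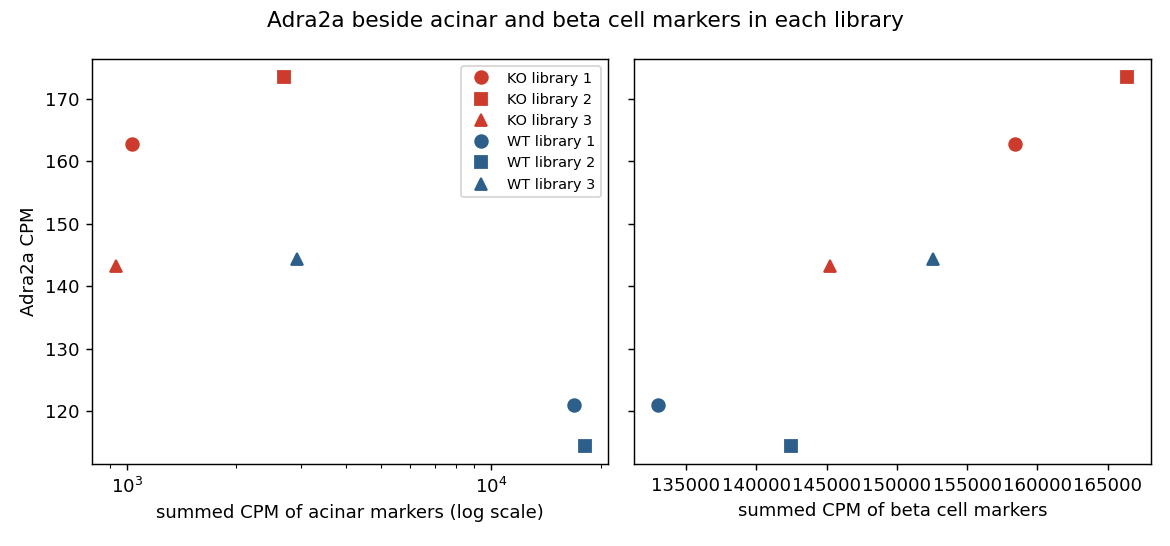
Adra2a CPM in each library against the summed CPM of 24 acinar markers (left, log axis) and of 13 beta cell markers (right), KO in red and WT in blue. WT libraries 1 and 2, at 121 and 114 CPM of Adra2a, lie at the high end of the acinar axis and the low end of the beta cell axis.

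Genes whose pattern over the 6 libraries was most like that of Adra2a were ranked by the root mean square difference of mean-centred log2 CPM. The nearest were Spry4, an inhibitor of receptor tyrosine kinase signalling (0.0414), Pde5a, a cyclic GMP phosphodiesterase (0.0435), Cabp1, a calcium-binding protein (0.0486), Map3k7cl (0.0509) and Pold4, a DNA polymerase delta subunit (0.0538). The root mean square deviation of Adra2a itself was 0.213. Spry4 stood at 22.3, 25.3 and 20.01 CPM in KO libraries and 17.7, 16.6 and 19.9 CPM in WT libraries, with the same order of libraries as Adra2a except that KO library 3 was above WT library 3. The log2 fold changes of the 5 ran from 0.32 to 0.41, and their edgeR adjusted p from 0.234 to 0.629. Because the 5 were chosen by likeness over these same libraries, fold changes near that of Adra2a follow from the choice.

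Summed by main coupling, the 4 Gs receptors reached 177 ± 1.28 RPKM in KO and 178 ± 2.75 RPKM in WT (SD, n = 3 each). The 3 receptors grouped under Gq, Ffar4 among them, reached 20.5 ± 1.23 RPKM in KO and 20.3 ± 1.76 RPKM in WT. The 3 Gi receptors reached 147 ± 6.88 RPKM in KO and 141 ± 4.69 RPKM in WT, and the ratio of Gi to Gs sums was 0.791, 0.876 and 0.822 in KO libraries and 0.775, 0.817 and 0.794 in WT libraries. These sums are descriptions, with Gipr and Sstr3 the largest terms. Among the 3 Gi receptors only Adra2a averaged higher in KO, 33.1 against 26.2 RPKM in WT. Sstr3 (99.5 against 100.8 RPKM) and Galr1 (14.1 against 14.4 RPKM) averaged lower in KO.

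Close relatives of the 10 receptors showed which subtypes the islet RNA held. Of 79 related receptors, 51 passed the low-count filter, and the other 28 had at most 14 counts in any library. Among adrenergic receptors, Adra2a at 29.6 RPKM stood far above Adrb1 (0.305 RPKM) and Adra2b (0.0693 RPKM). Among muscarinic receptors Chrm4, which couples to Gi, was at 11.7 RPKM, above Chrm3 at 5.81 RPKM and Chrm2 at 1.25 RPKM. That order rests on the exonic lengths used, 1440 bases for the single-exon Chrm4 and 6253 bases for Chrm3, which stood at 8.37 RPKM on its longest transcript. Among somatostatin receptors Sstr3 exceeded Sstr2 (2.01 RPKM) and Sstr1 (0.938 RPKM), and among galanin receptors Galr3 (21.1 RPKM) was above Galr1 (14.2 RPKM) and Galr2 (2.13 RPKM). The order of Galr3 and Galr1 also rests on exonic length, 1245 against 2987 bases. In CPM Galr1 was the higher, at 42.5 against 26.3. In the secretin family, which holds Glp1r, Gipr and Gcgr, the VIP receptor Vipr1 was at 20.9 RPKM, Calcrl, which forms receptors for CGRP and adrenomedullin, at 4.19 RPKM and Vipr2 at 1.06 RPKM. The short-chain fatty acid receptors Ffar3 and Ffar2 stood at 11.4 and 8.63 RPKM, above the long-chain receptor Ffar4. The long-chain receptor Ffar1 averaged 10.6 RPKM, between Ffar3 and Ffar2, and 49.1 RPKM on its RefSeq span.

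None of the 51 tested relatives was called by edgeR. DESeq2 gave an adjusted p to only 5 of the 79 relatives and called 0 of these. In the secretin family list 0 of 7 tested members were called (1 at an unadjusted p under 0.05), 4 had positive and 3 negative log2 fold changes, and the median was 0.04. Its smallest p was that of Crhr1, a receptor for corticotropin-releasing hormone, at 4.73, 3.15 and 2.30 CPM in KO libraries and 2.60, 2.26 and 2.09 CPM in WT libraries (log2 fold change 0.55, edgeR adjusted p 0.410). Of the fatty acid and lipid receptors, 0 of 13 were called (1 at an unadjusted p under 0.05) and the median was -0.05. The prostaglandin E2 receptor gene Ptger3, which couples to Gi and is known to restrain insulin secretion, stood at 1.86, 1.83 and 2.41 CPM in KO libraries and 3.45, 3.63 and 3.25 CPM in WT libraries. All KO values of Ptger3 were below all WT values, and its log2 fold change was -0.76 (SE 0.198, edgeR adjusted p 0.260). S1pr1, a sphingosine 1-phosphate receptor of endothelial cells, had a log2 fold change of -0.05, S1pr3 of 0.23 and Ffar2 of 0.12.

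The adrenergic and muscarinic list had 0 of 6 tested members called, 0 at an unadjusted p under 0.05, and a median of -0.02, with Chrm2 at -0.29 and Chrm4 at -0.07. The somatostatin and galanin list had 0 of 4 called, 0 at an unadjusted p under 0.05, and a median of -0.04, with Galr3 at 0.01, Galr2 at -0.05 and Sstr1 at -0.16. Among other islet receptors 0 of 21 were called (3 at an unadjusted p under 0.05), and the median was -0.01. Adgrg1, an adhesion receptor abundant in beta cells, stood at 345 ± 4.62 CPM in KO and 332 ± 4.06 CPM in WT (SD, n = 3 each; log2 fold change 0.06, edgeR adjusted p 0.725). The calcium-sensing receptor Casr differed by 0.12 on the log2 scale and the tryptophan receptor Gpr142 by 0.17 (edgeR adjusted p 0.437). The cholecystokinin receptor Cckar, known from mouse acinar cells, stood at 0.531, 0.401 and 0.294 CPM in KO libraries and 4.30, 7.33 and 1.05 CPM in WT libraries. It was highest in WT libraries 1 and 2, as the acinar markers were, and its log2 fold change of -3.32 was not called (edgeR adjusted p 0.399). Cckar was called without WT library 3 (-3.79, edgeR adjusted p 4.12e-06) and with the block by column number (-3.28, edgeR adjusted p 0.000464).

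Downstream of the receptors, the Gs and cyclic AMP list had 36 tested members, of which 0 were called by edgeR and 3 had an unadjusted p under 0.05; 13 had positive and 23 negative log2 fold changes, and the median was -0.02. Gnas, the Gs alpha subunit gene, stood at 1511 ± 29.1 CPM in KO and 1440 ± 88.8 CPM in WT (SD, n = 3 each; log2 fold change 0.07), and Prkacb, a catalytic subunit of protein kinase A, had a log2 fold change of 0.08. The smallest p in this list was that of Pde1c, a calmodulin-dependent phosphodiesterase, at 36.2, 33.1 and 34.4 CPM in KO libraries and 41.8, 40.2 and 38.8 CPM in WT libraries (-0.22, SE 0.0665, edgeR adjusted p 0.280). Pclo, a cyclic AMP-dependent secretory scaffold, had a log2 fold change of -0.20 (edgeR adjusted p 0.383).

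In the Gq and phospholipase C list 0 of 23 members were called by edgeR, with 11 positive, 12 negative and a median of -0.00210. At an unadjusted p under 0.05 the list held 3 of 23, against 11.0% of all genes. The inositol trisphosphate receptors, the calcium channels that open in response to Gq signals, had the smallest p. Itpr3 stood at 201, 186 and 200.2 CPM in KO libraries and 234, 237 and 226 CPM in WT libraries (log2 fold change -0.25, SE 0.0576, edgeR adjusted p 0.211). Itpr1 stood at 147, 134 and 135 CPM in KO libraries and 184, 154 and 155 CPM in WT libraries (-0.25, SE 0.0685, edgeR adjusted p 0.270). For both genes every KO library was below every WT library. They were the only 2 of the 23 without overlap, and 15.7% of all genes had no overlap. DESeq2 called both (adjusted p 0.00365 for Itpr3 and 0.0363 for Itpr1), and edgeR with the block by column number called Itpr1 (adjusted p 0.0475). Without a low-count filter edgeR called both (adjusted p 0.0270 for Itpr3 and 0.0136 for Itpr1). Prkcb, a protein kinase C gene, had -0.04 as its log2 fold change and the cation channel gene Trpm5 had 0.26 (edgeR adjusted p 0.662).

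In the Gi and Go list 0 of 28 tested members were called by edgeR (2 at an unadjusted p under 0.05), with 14 positive, 14 negative and a median of 0.01. Gnai2, a Gi alpha subunit gene, stood at 755, 809 and 735 CPM in KO libraries and 692, 622 and 685 CPM in WT libraries, without overlap (log2 fold change 0.20, SE 0.0585, edgeR adjusted p 0.270). DESeq2 called it (adjusted p 0.0227). Rgs16, which ends Gi and Gq signals, stood at 78.3, 75.6 and 60.3 CPM in KO libraries and 53.4, 52.0 and 64.4 CPM in WT libraries (0.34, edgeR adjusted p 0.395), the groups overlapping through the column 3 libraries as for Adra2a. Without KO library 3, edgeR called Rgs16 (0.44, adjusted p 0.0238), as it did without a low-count filter (0.34, adjusted p 0.000192). Gnao1, the Go alpha subunit gene, had a log2 fold change of -0.04.

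Of 15 tested genes for receptor desensitisation and trafficking 0 were called by edgeR (2 at an unadjusted p under 0.05), and the median was -0.01. The arrestin gene Arrb2 stood at 57.8, 61.6 and 60.7 CPM in KO libraries and 48.0, 55.1 and 55.6 CPM in WT libraries (log2 fold change 0.18, edgeR adjusted p 0.341). The receptor kinase gene Grk5 had a log2 fold change of -0.14 (edgeR adjusted p 0.394), Grk3 of -0.08, and the proton pump accessory gene Atp6ap2 of 0.04. Among 16 tested genes for ligands and their processing 0 were called by edgeR (2 at an unadjusted p under 0.05), and the median was 0.02. Glucagon (Gcg), the ligand of Gcgr and precursor of GLP-1, had a log2 fold change of -0.03, the amylin gene Iapp of 0.14 (edgeR adjusted p 0.270) and Npy, whose peptide acts through Gi-coupled receptors, of 0.40 (edgeR adjusted p 0.351). Without a low-count filter edgeR called 272 genes in all, and 4 of them were in this list. They were Npy (0.41, adjusted p 0.0111), Pyy (0.38, adjusted p 1.04e-05), Ucn3 (0.41, adjusted p 0.0282) and Gal (-3.19, adjusted p 3.23e-06). Gal had too few counts to pass the filter of the main fit. Without WT library 2, edgeR called the gamma cell peptide genes Ppy (0.86, adjusted p 3.21e-08) and Pyy (0.52, adjusted p 0.00284). The library left out had the highest gamma cell marker sum of the WT libraries, 7330 CPM, against 4853 and 5000 CPM in WT libraries 1 and 3. Summed gamma cell markers, which include Ppy and Pyy themselves, stood at 8169 ± 325 CPM in KO and 5727 ± 1390 CPM in WT (SD, n = 3 each; exact two-sided permutation p 0.1, the lowest value that 3 against 3 can give).

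Transcripts known to respond to cyclic AMP or to calcium were compared last. Of 14 tested members 0 were called by edgeR and 2 had an unadjusted p under 0.05; 8 had positive and 6 negative log2 fold changes, and the median was 0.02. Rasd1, a small GTPase that acts on Gi signalling, stood at 37.0, 37.6 and 31.4 CPM in KO libraries and 24.9, 23.7 and 29.4 CPM in WT libraries, without overlap (log2 fold change 0.44, SE 0.0883, edgeR adjusted p 0.192). It was called without WT library 3 (0.54, edgeR adjusted p 0.00565) and without KO library 3 (0.52, edgeR adjusted p 0.0138). Rasd1 was also called without a low-count filter (0.45, edgeR adjusted p 1.58e-05). Nr4a1 of the same list was called without KO library 3 (0.42, edgeR adjusted p 0.00557). The immediate early gene Egr1 had 0.02 as its log2 fold change and the clock gene Per1 had -0.15 (edgeR adjusted p 0.414). Over all 11 receptor and pathway lists, 183 of 219 genes were tested and 0 were called by edgeR. DESeq2 gave an adjusted p to 57 of the 219 and called 3 of these (Itpr3, Itpr1 and Gnai2), or 5.26%, against 2.28% of all genes with one. Of the genes tested by edgeR, 10.4% had an unadjusted p under 0.05 and the groups did not overlap for 16.9%, shares close to the 11.0% and 15.7% of all genes.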

How the data were processed

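Per the labels' protocols, column-purified RNA went into strand-specific libraries. The submitters' processing notes name Trimmomatic 0.39, STAR 2.7.10b, featureCounts 2.0.3 and mm10. The counting annotation and strand setting are not named in the sources used here. The authors deposited raw counts per gene symbol, 1 column per library. KO columns carry the numbers 1 to 3 and KO titles 4 to 6, so KO libraries are known by column only. Same-numbered KO and WT columns deviated together from their group means (correlations 0.182, 0.166 and 0.191), and the pairing rests on these values and the column names alone.

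Genes were kept by filterByExpr (minimum count 10), TMM-scaled and tested with edgeR 4.0.16 by robust quasi-likelihood fits (glmQLFit, glmQLFTest). Two-sided p-values were adjusted by Benjamini-Hochberg over 16240 genes. The SE is the size of the log2 fold change divided by the square root of F. RPKM use exonic lengths of GENCODE M21 (GRCm38), in which all 10 receptors were found, and no exonic base of theirs was shared with another gene. Alternatives used DESeq2 1.42.0 and limma-voom (limma 3.58.1) in R 4.3.3, other scalings and filters, a covariate, a block and left-out libraries. The fit was tested on simulated data. No 2 libraries of a genotype were alike within sampling noise (chi-square per degree of freedom at least 4.54). Precision is limited by the spread between libraries, and counting error is named where it matters.

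The members and lists were chosen with earlier results of these data known. All 10 receptors are named. In each list the text names called genes, or else the 2 with the highest CPM and the 2 with the smallest p; 1 gene so chosen is not reported here. Further relatives, and genes called only under an alternative, were chosen after their values were seen.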

Additional observations from a re-analysis of the deposited data

How the results depend on the processing

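The count of called genes, 2 with edgeR, was 66 with DESeq2, 1 with limma-voom, 272 without a low-count filter, 1 without robust estimation, 0 with the acinar covariate and 30 with the replicate block by column number. It ran from 0 (without KO library 1 or 2) to 114 (without WT library 3) when single libraries were left out. The count of called receptors, 0, became 1 (Adra2a) with DESeq2, without a low-count filter and, among left-out libraries (range 0 to 1), without WT library 3. The causes were not tested. The block left the 10 receptors uncalled. It gave Glp1r, lower in KO in 3 of 3 same-numbered pairs, an edgeR adjusted p of 0.265 and Adra2a one of 0.446.

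No receptor other than Adra2a was called under any of the 19 alternatives, of which DESeq2 gave 6 receptors no adjusted p, and small log2 fold changes turned sign under some. With the acinar covariate, which ran with genotype, these were Gipr (-0.0385), Gcgr (0.0337), Chrm3 (-0.0366) and Sstr3 (0.0776). Against WT library 3 alone, where the lone library is assumed to vary like the KO libraries, they were Glp1r (0.0122), Gipr (-0.0356), Gcgr (0.00517), Chrm3 (-0.0122) and Sstr3 (0.0149). Over left-out libraries the ranges spanned 0 for Gipr (-0.0132 to 0.0644), Gcgr (-0.0389 to 0.0160), Ffar1 (-0.0554 to 0.0959), Ffar4 (-0.177 to 0.0871), Gpr119 (-0.162 to 0.0653), Chrm3 (-0.0664 to 0.179), Sstr3 (-0.0565 to 0.0349) and Galr1 (-0.0994 to 0.0171). Ffar4 per delta cell marker level, -0.0644 as KO minus WT, ranged from -0.147 to 0.0861 and was above 0 only without KO library 2. Under the RefSeq spans of intronless genes, an alternative chosen after seeing the data, 6 of 10 receptors kept their place in the order. The Glp1r to Gipr ratio kept its direction and the other alternatives kept all 10 places. Ffar4, at 75 to 109 counts, is limited most by depth.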

Other observations

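Of the related receptors, Sstr5 had 0 counts in all 6 libraries, as did Adra1b, Ghrhr, Npy5r, Drd4 and Oprk1. A count of 0 allows up to 3 counts per library, 0.159 to 0.177 CPM in KO and 0.159 to 0.179 CPM in WT libraries, for counting error only. The annotation behind the counts is not given in the sources used here, so a 0 may also depend on how the gene was annotated.

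The galanin gene Gal, whose peptide is the ligand of Galr1, held 1 to 31 counts and did not pass the low-count filter. It stood at 0.0531, 0.172 and 0.118 CPM in KO libraries 1 to 3 and at 1.17, 1.85 and 0.275 CPM in WT libraries 1 to 3, and so was highest in the libraries with the most acinar transcripts. Without WT library 3 it was called lower in KO (log2 fold change -3.65, edgeR adjusted p 0.00107).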
